A study of Mus musculus with 7 samples.

Results

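The 10 genes described here encode C-type lectin receptors of myeloid cells, and were chosen by symbol: Clec4a1, Clec4a2, Clec4a3, Clec4d, Clec4e, Clec4n, Clec7a, Clec10a, Clec12a and Cd209a. All 10 were among the 15155 genes listed for donor cells, and 9 of the 10 (not Clec10a) were among the 23737 listed for host cells. They were measured in single cells of mouse epidermis, 3 weeks after lethally irradiated male CD45.2 C57BL/6 hosts had been given bone marrow of female CD45.1 C57BL/6 donors (bone marrow transplantation, BMT). Donor CD11b+MHCII+ cells came as 3 libraries labelled BMT (2572, 8382 and 226 cells in replicates 1 to 3, written BMT 1 to BMT 3) and 1 library labelled as BMT with added T cells (719 cells, written BMT + T cells). Host CD11b+MHCII+ cells came as 1 library of 781 cells under the BMT label, and CD45-negative keratinocytes of the hosts as 1 library under each label, with 2836 and 2590 cells. The study describes its host Langerhans cells as isolated from skin with graft-versus-host disease. The BMT label of the host library therefore need not mean that T cells were absent. Every group had irradiation and marrow in common, and no group without a transplant was analysed here. The design text describes Matahari T cells (CD8), which recognise a male antigen, and CD4 T cells as part of the transplant without setting the BMT libraries apart, so the comparison is between labels. The labels give no age and do not tie animals to libraries. The study pooled the epidermis of several mice for sequencing and combined independent experiments, so a library is a pool and not 1 animal. The errors below measure how cluster differences vary between libraries or, for the labels, the spread between libraries. Both may be in part technical.

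C-type lectin receptors bind sugars and other ligands on microbes and dying cells. Clec7a (Dectin-1, which binds beta-glucan), Clec4n (Dectin-2), Clec4d (MCL) and Clec4e (Mincle) activate the cell through the kinase Syk and the adaptor Card9, and the last 3 do so through the Fc receptor gamma chain Fcer1g. Clec4a2 (DCIR) and Clec12a carry an inhibitory motif that recruits phosphatases, Clec4a1 and Clec4a3 are close relatives of Clec4a2, and Clec10a (a galactose-type lectin, MGL1) and Cd209a (a relative of human DC-SIGN) bind and take up glycosylated ligands. Langerhans cells, the resident phagocytes of the epidermis, are themselves known for a C-type lectin, langerin (Cd207).

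By RefSeq on GRCm38.p6, 8 of the 10 genes lie on chromosome 6. Clec4a1, Clec4a3, Clec4a2, Clec4n, Clec4d and Clec4e lie in this order within 368.0 kb (chr6:122921848-123289871), and Clec12a and Clec7a lie within 123.0 kb of each other (chr6:129349783-129472785). Clec10a is at chr11:70166623-70170836 and Cd209a at chr8:3743395-3748984. Reads of close relatives in the Clec4a and Clec4b group can be divided between them by the counting, so the values of Clec4a1, Clec4a2 and Clec4a3 are less certain one by one than as a group.

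The 250 bases upstream of the RefSeq start are shown for Clec4d and Clec4e, whose levels went together most closely of all pairs, and for Clec7a, the member called in every comparison that involved resident mLC. All 3 are written 5′ to 3′ on the strand of the gene. Capitals mark 3 motifs searched on both strands, PU.1 (GAGGAA), C/EBP (TTGCNNAA) and AP-1 (TGANTCA), which share no letters with each other in these stretches.
Clec4d, chr6:123261857-123262106, plus strand: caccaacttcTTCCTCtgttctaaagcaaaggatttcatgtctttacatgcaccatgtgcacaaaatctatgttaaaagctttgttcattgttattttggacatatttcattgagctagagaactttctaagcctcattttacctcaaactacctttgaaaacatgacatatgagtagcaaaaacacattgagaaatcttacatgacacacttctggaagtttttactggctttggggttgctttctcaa
Clec4e, chr6:123289872-123290121, minus strand: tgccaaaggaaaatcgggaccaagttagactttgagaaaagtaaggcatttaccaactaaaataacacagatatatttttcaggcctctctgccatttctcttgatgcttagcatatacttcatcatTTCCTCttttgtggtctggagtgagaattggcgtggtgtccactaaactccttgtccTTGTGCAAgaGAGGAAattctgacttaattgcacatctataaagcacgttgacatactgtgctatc
Clec7a, chr6:129472786-129473035, minus strand: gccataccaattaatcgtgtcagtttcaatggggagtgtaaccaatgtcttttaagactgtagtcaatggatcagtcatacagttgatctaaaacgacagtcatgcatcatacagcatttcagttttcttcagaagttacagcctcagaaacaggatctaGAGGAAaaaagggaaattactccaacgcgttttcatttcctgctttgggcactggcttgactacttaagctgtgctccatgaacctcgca
The PU.1 letters start 240 bases upstream of the start in Clec4d, 123 and 56 bases upstream in Clec4e and 90 bases upstream in Clec7a. The C/EBP letters occur in Clec4e alone of these 3, 66 bases upstream, and the AP-1 letters in none. Of 32841 RefSeq windows of the same length, 23.3% held the PU.1 letters, 9.57% the C/EBP letters and 6.75% the AP-1 letters, so a match is common. RefSeq windows were matched for 8 of the 10 genes.

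Values are UMIs (unique molecular identifiers, each counting 1 captured RNA molecule) per 10000 UMIs of a cell, written CP10K, averaged over the cells of a library in a cluster. Clusters and their names are those of the authors: Mono (classical monocytes), ISG mono (interferon-stimulated gene monocytes), Hmox1+ mono, S100a+ mono and Mrc1+ macrophages. The others are MC, and resident, cycling and migrating mLC (monocyte-derived Langerhans cells). MC stands for converting monocyte-derived cells, a name the study gave because their identity was unclear. Median depth was 7021.5 to 13387 UMIs per donor cell, and 0 to 5 cell barcodes were shared by any 2 donor libraries. A library and cluster with at least 20 cells made 1 of the 27 units compared. Cd207 was at 1.31 to 10.4 CP10K in resident mLC and at most 0.0677 in Mono, as their names say. In S100a+ mono of BMT 2, the 6 listed neutrophil markers summed to 563 CP10K, against 0.209 to 48.6 in the units of other clusters, with Retnlg at 41.7, Csf3r at 5.14 and Cxcr2 at 3.89, so that this cluster carried neutrophil as well as monocyte markers. The 3 listed T cell markers summed to at most 0.117 CP10K and the 2 listed B cell markers to at most 0.425 in any unit, and the keratinocyte libraries held 0 to 7 UMIs of each receptor in all their cells.

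**Figure D1:**
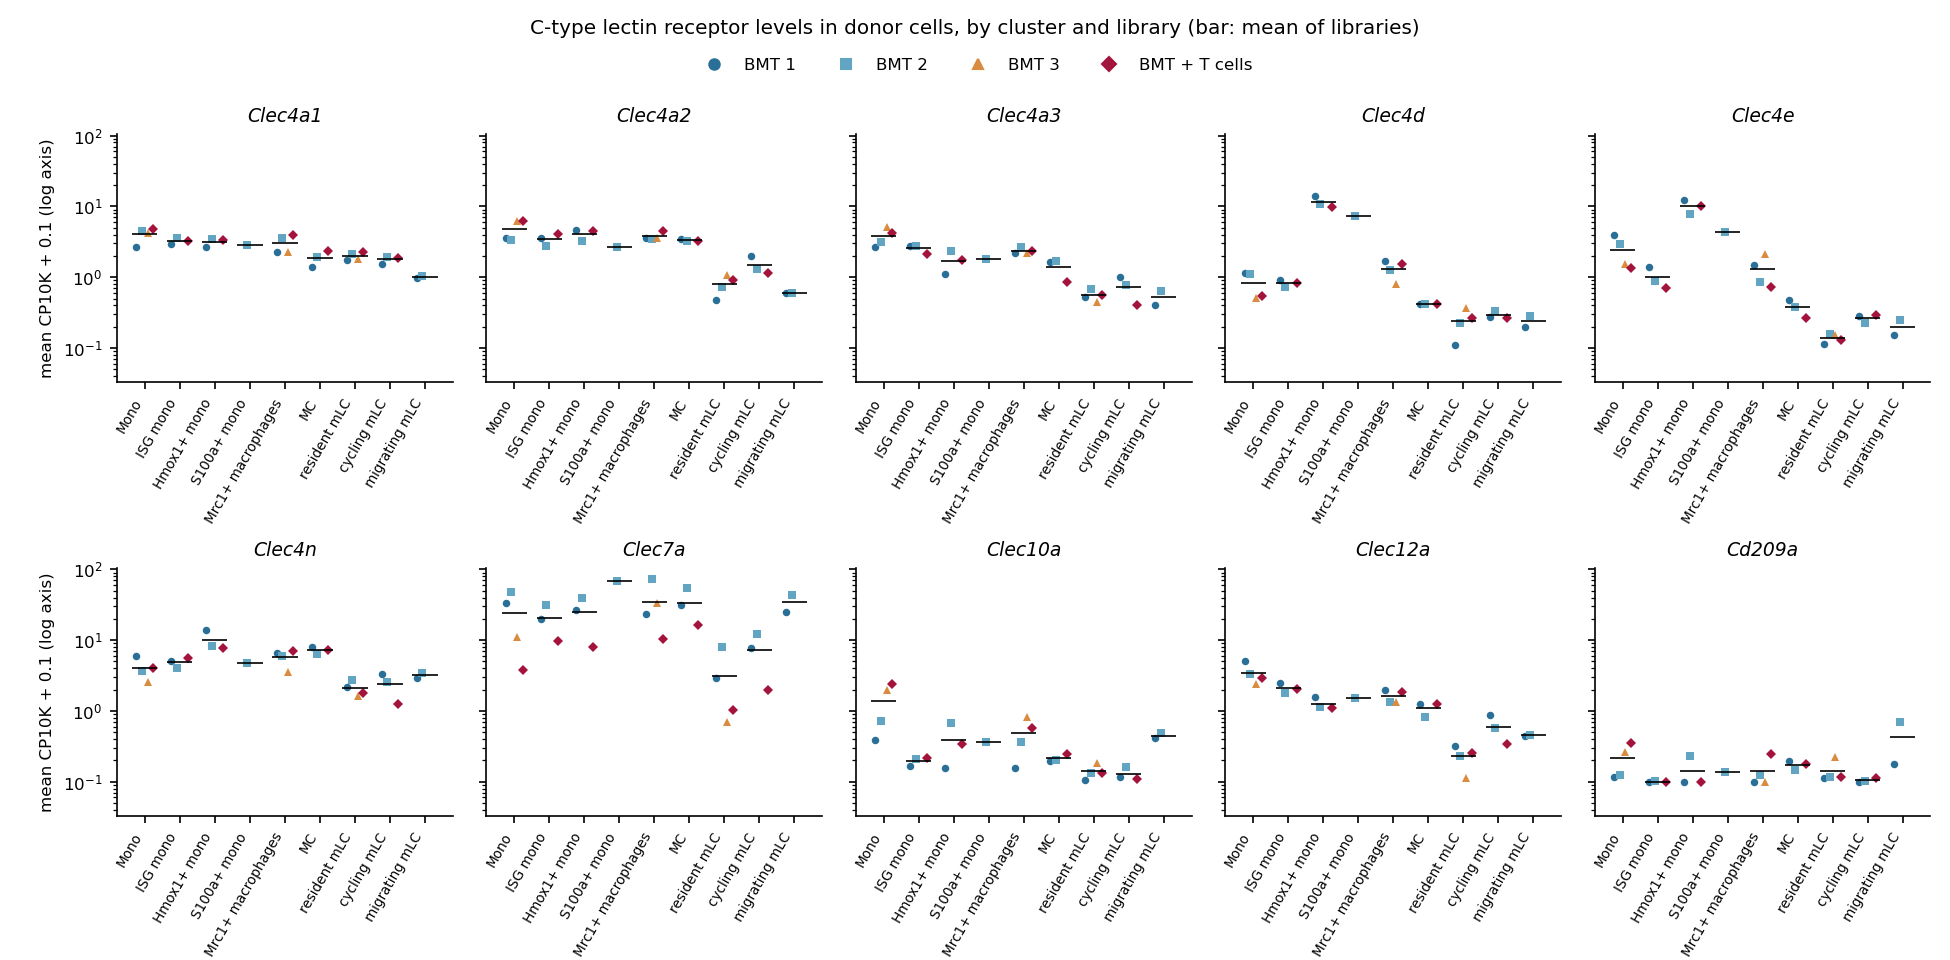
Mean CP10K + 0.1 (log axis) of each of the 10 receptors in each donor cluster, with 1 point per library of at least 20 cells and a bar at the mean of the libraries. Most receptors are lowest in the mLC clusters, Clec4d and Clec4e stand highest in Hmox1+ mono (9.80 to 14.0 and 7.80 to 12.4 CP10K), and Clec7a differs most between libraries.

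The first question is what becomes of these receptors between the monocytes that enter the epidermis and the resident Langerhans-like cells. All 9 receptors that passed the filter on low values were lower in resident mLC than in Mono at an adjusted p under 0.05, where 14.3% of all 7267 genes tested were, and 6 of the 9 were called (absolute log2 fold change above 2 as well), against 2.56% of all genes called lower. Their median log2 fold change was -2.75, beside 0.14 over all genes. Cd209a was too low to be tested. The clusters were made from the same values, so calls between clusters describe the annotation.

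Among the activating receptors, Clec4e, the receptor for mycobacterial cord factor, was at 3.86, 2.81, 1.43 and 1.26 CP10K in Mono of BMT 1, BMT 2, BMT 3 and BMT + T cells, and at 0.0124, 0.0575, 0.0528 and 0.0307 in resident mLC of the same libraries. The 2 ranges lay far apart, and the log2 fold change on log2(CP10K + 0.1) was -4.01 (SE 0.30, limma adjusted p = 1.32e-10). Since resident mLC were below the pseudocount of 0.1, this value understates the ratio. Clec4e in resident mLC rests on 93 UMIs in 4 libraries.

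Clec7a was at 33.9, 47.9, 10.8 and 3.68 CP10K in Mono and at 2.81, 7.83, 0.599 and 0.936 in resident mLC of the same libraries. The ranges overlapped over the libraries, while resident mLC were lower in 4 of 4 libraries, with a log2 fold change of -2.99 (SE 0.37, limma adjusted p = 4.08e-06). After thinning every cell to 2000 UMIs, Clec7a was found in 93.75, 89.4, 44.3 and 38.6% of Mono and in 40.7, 53.5, 8.51 and 13.1% of resident mLC. The share in thinned keratinocytes, at median depths of 8895.5 and 8834 UMIs before thinning, was 0 and 0.0386%.

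Clec4d (0.401 to 1.06 CP10K in Mono, 0.0114 to 0.268 in resident mLC) and Clec4n (2.46 to 5.96 and 1.54 to 2.62) differed by less than the fold asked for. Their log2 fold changes were -1.79 (SE 0.30, limma adjusted p = 5.33e-05) and -0.92 (SE 0.21, limma adjusted p = 0.00123). Clec4n, which binds mannose-rich fungal sugars, was thus still at 1.99 ± 0.481 CP10K (SD, n = 4) in resident mLC, and its ranges in the 2 clusters overlapped slightly. Without BMT 3, or without the BMT + T cells library, Clec4d passed the fold as well (log2 fold change -2.24 and -2.04).

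Of the inhibitory receptors, Clec12a, which senses products of dead cells, was at 4.91, 3.24, 2.335 and 2.79 CP10K in Mono and at 0.222, 0.135, 0.0134 and 0.158 in resident mLC. No library of resident mLC came near any library of Mono, and the log2 fold change was -3.93 (SE 0.20, limma adjusted p = 4.76e-13). Clec4a2 was at 3.53, 3.31, 6.18 and 6.03 CP10K in Mono and at 0.373, 0.631, 0.964 and 0.812 in resident mLC. Its ranges also lay apart, with a log2 fold change of -2.62 (SE 0.20, limma adjusted p = 2.65e-10).

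The relatives of Clec4a2 had unlike values. Clec4a3 was at 2.60, 3.00, 5.10 and 4.14 CP10K in Mono and at 0.421, 0.586, 0.346 and 0.465 in resident mLC, a log2 fold change of -2.75 (SE 0.25, limma adjusted p = 5.96e-09). Clec4a1 was at 2.585, 4.42, 4.16 and 4.78 CP10K in Mono and at 1.645, 2.05, 1.695 and 2.14 in resident mLC, a log2 fold change of -1.02 (SE 0.14, limma adjusted p = 2.56e-06). In resident mLC, Clec4a1 had the narrowest spread between libraries for its level (1.88 ± 0.247 CP10K, SD, n = 4), and it was not called in any comparison. The difference between the 3 relatives was not tested.

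Clec10a, the galactose-type lectin, was at 0.290, 0.631, 1.86 and 2.28 CP10K in Mono and at 0.00659, 0.0352, 0.0857 and 0.0349 in resident mLC. The 4 libraries of resident mLC held 1, 36, 17 and 22 of its UMIs, and the log2 fold change was -2.96 (SE 0.35, limma adjusted p = 3.92e-07).

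Only Clec7a of the 6 was also called at a pseudocount of 1 or from the means of the deposited log values, under which 41 and 21 of all genes were called. Leaving out any 1 of the 4 libraries left 6 or 7 members called, with 299 to 310 of all genes.

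**Figure D2:**
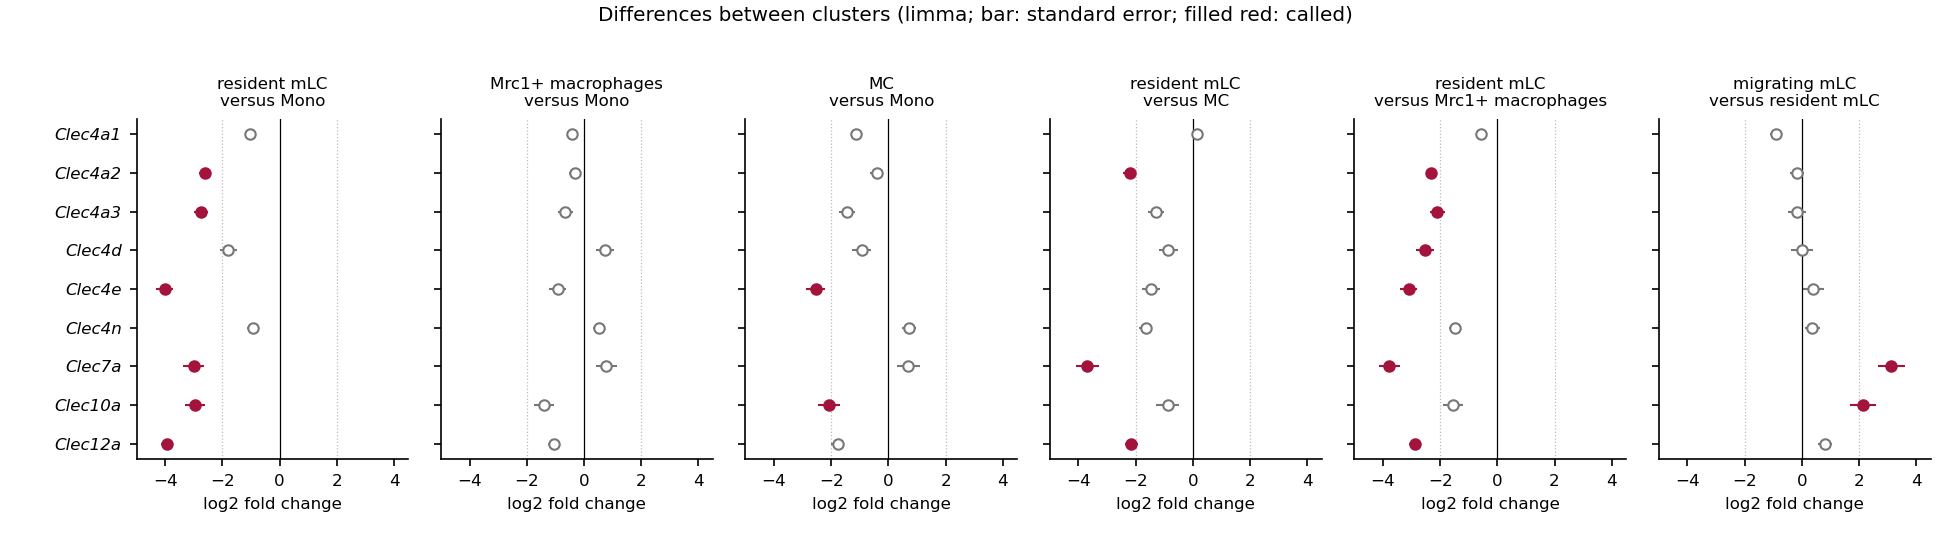
Log2 fold change of the 9 tested receptors (horizontal axis, bar for the standard error) in each of the 6 comparisons of donor clusters, with filled red points for called receptors and dotted lines at the fold threshold. All called receptors are lower in the first-named cluster, except Clec7a (3.13) and Clec10a (2.13), which are higher in migrating than in resident mLC.

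Mrc1+ macrophages and MC were also set against Mono and against resident mLC. The study describes Mrc1+ macrophages as cells that seem to have taken a default macrophage route. Comparisons with them therefore do not order changes on the way to resident mLC. Between Mrc1+ macrophages and Mono, limma called 0 of 9 receptors, as against 30 of 7267 genes in either direction (0.413%). An unadjusted p under 0.05 was reached by 8 of 9 receptors and by 1681 of the 7267 genes. Clec12a (log2 fold change -1.05, adjusted p = 0.00171) and Clec10a (-1.40, adjusted p = 0.014) were lower at an adjusted p under 0.05 without reaching the fold. In MC, 2 of 9 receptors were called lower than in Mono, against 0.578% of all genes. Clec4e was at 0.383, 0.277 and 0.166 CP10K in MC of BMT 1, BMT 2 and BMT + T cells (log2 fold change -2.55, SE 0.33, limma adjusted p = 9.24e-06). Clec10a was at 0.0943, 0.102 and 0.144 in the same libraries (log2 fold change -2.08, SE 0.39, limma adjusted p = 0.00115), a call that was lost at a cell minimum of 50, in thinned cells, with only the 2 clusters in the fit and without the BMT + T cells library.

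Clec7a and Clec4n were not lower in MC. Clec4n was at 7.97, 6.29 and 7.21 CP10K in MC, above the range of Mono in each, with a log2 fold change of 0.72 against Mono that missed the threshold (adjusted p = 0.0593). Clec7a was at 30.8, 53.7 and 16.15 CP10K there, with a log2 fold change of 0.69 (adjusted p = 0.406). Both were lower in resident mLC than in MC. Clec7a was called (log2 fold change -3.69, SE 0.41, limma adjusted p = 3.17e-06), with Clec4a2 (-2.21) and Clec12a (-2.16), so that 3 of 9 receptors were called against 1.32% of all genes called lower. Clec4n stood at -1.65 (SE 0.23, limma adjusted p = 1.09e-05). Clec4a2 was not called between these clusters without BMT 1 (-1.93) or in thinned cells (-1.80), nor Clec12a at a minimum of 50 cells (-1.95). Clec4a1 differed by 0.13 (SE 0.15, adjusted p = 0.621).

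Against Mrc1+ macrophages, 6 of 9 receptors were called lower in resident mLC, against 2.46% of all genes, and none higher. They were Clec7a (log2 fold change -3.78), Clec4e (-3.10), Clec12a (-2.88), Clec4d (-2.52), Clec4a2 (-2.30) and Clec4a3 (-2.09). Clec4d is the member that this comparison adds, with 1.58, 1.15, 0.716 and 1.46 CP10K in Mrc1+ macrophages and 0.0114, 0.124, 0.268 and 0.166 in resident mLC of the same libraries (SE 0.30, limma adjusted p = 4.82e-07). These comparisons share the libraries and the resident mLC, so their calls are not independent of each other.

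Migrating mLC, which carry the lymph node homing receptor Ccr7, were compared with resident mLC in BMT 1 and BMT 2, the libraries with at least 20 cells of both. Clec7a and Clec10a were called higher, 2 of 9 against 1.71% of all genes. Clec7a was at 25.02 and 43.5 CP10K in migrating mLC and at 2.81 and 7.83 in resident mLC of these libraries (log2 fold change 3.13, SE 0.47, limma adjusted p = 9.64e-05). In MC of the same libraries it was at 30.8 and 53.7, above migrating mLC in both, a difference that was not tested. Clec10a was at 0.309 and 0.381 CP10K in migrating mLC and at 0.00659 and 0.0352 in resident mLC (log2 fold change 2.13, SE 0.45, limma adjusted p = 0.0013). Only 8 of 91 migrating mLC of BMT 1 and 97 of 766 of BMT 2 held a Clec10a UMI. At a pseudocount of 1 its log2 fold change was 0.54 (limma adjusted p = 0.08). From the means of the deposited log values it was 0.25 (limma adjusted p = 0.267). With only the 2 clusters in the fit its log2 fold change was 1.89, under the fold asked for. In the 16 migrating mLC of the BMT + T cells library, which were not part of the fit, Clec7a was at 9.38 and Clec10a at 1.16 CP10K.

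The other receptors were not called. Clec4a1 was lower in migrating than in resident mLC, at 0.879 and 0.939 CP10K (log2 fold change -0.92, SE 0.17, limma adjusted p = 4.87e-04), and Clec12a was higher (0.81, SE 0.26, limma adjusted p = 0.0271). Clec4n (0.37), Clec4e (0.40), Clec4d (0.00), Clec4a2 (-0.17) and Clec4a3 (-0.17) had adjusted p from 0.34 to 0.996.

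Clec4d and Clec4e, which lie next to each other and whose products form a complex that binds mycobacterial glycolipid, had their highest levels outside the clusters compared above. In Hmox1+ mono, named for the heme-degrading enzyme, Clec4d was at 14.0, 10.6 and 9.80 CP10K and Clec4e at 12.4, 7.80 and 9.93 in BMT 1, BMT 2 and BMT + T cells. For both, the lowest of these 3 values was above every one of the 23 units of other clusters apart from S100a+ mono, which held for 1.64% of all genes tested. In S100a+ mono of BMT 2, Clec4d was at 7.13 and Clec4e at 4.2 CP10K in 594 cells. The 11 cells of this cluster in BMT 1 held 12.2 and 18.3 CP10K and the 9 cells in BMT + T cells 30.4 and 29.1, from 43 to 68 UMIs each. No test was made of these clusters, which were singled out after the values were seen. Of 7 neutrophil markers 6 were listed, and these summed to 5.89 to 48.6 CP10K in Hmox1+ mono and to 0.209 to 9.36 in the clusters other than S100a+ mono, so the ranges overlapped. Within that sum S100a8 was at 3.99 to 40.9 CP10K in Hmox1+ mono, while Cxcr2 was at most 0.0274 and Mmp9 at most 0.0257. The part of these markers in the result was not tested.

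Clec4n was also highest in Hmox1+ mono, at 13.8, 8.13 and 7.73 CP10K, but its range overlapped that of MC (6.29 to 7.97). Of the inhibitory receptors there, Clec12a was at 1.01 to 1.46 CP10K, below the range of Mono, and Clec4a2 at 3.17 to 4.53, overlapping it.

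**Figure D3:**
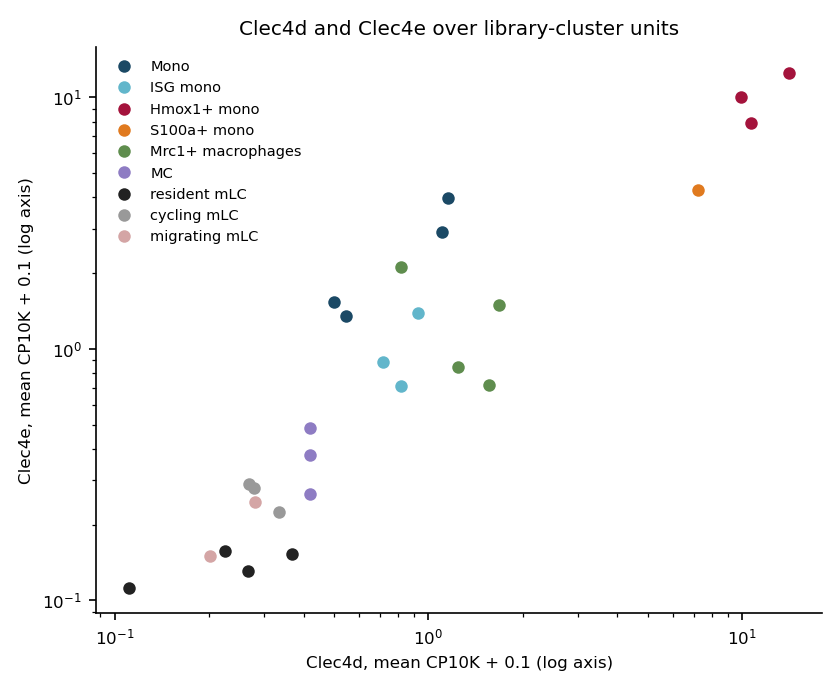
Mean CP10K + 0.1 of Clec4d (horizontal) and Clec4e (vertical), both on log axes, in the 27 units of 1 library and 1 cluster, coloured by cluster. The units rise together (Pearson's r = 0.91), with resident mLC at the lower left and Hmox1+ and S100a+ mono at the upper right.

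Over the 27 units, Clec4d and Clec4e had a Pearson's r of 0.911 on log2(CP10K + 0.1), the highest of all pairs of members. Clec4a3 with Clec12a (0.88) and Clec4a2 with Clec4a3 (0.866) came next. The lowest were Clec4a1 with Clec7a (0.0917) and Clec10a with Clec4n (0.136). Units of 1 library share its depth and units of 1 cluster its cell type, so these coefficients are descriptions.

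The genes most like each receptor over the same units were, for Clec4d, Sgms2 (0.948), the complement receptor C5ar1 (0.941) and Ctsl (0.937), and for Clec4e, Glrx (0.931), Irak3 (0.922) and Slc11a1 (0.917). For Clec7a they were AA467197 (0.94), Sdc4 (0.934) and Nampt (0.912). The Fc receptor Fcgr3 was among the 3 most like genes of Clec12a (0.927), Clec4a3 (0.922) and Clec4a2 (0.919), together with Cmklr1 and Cybb, Snx5 and Ctsc, and Sirpb1c and Cmklr1. For Clec4n they were Itga5 (0.894), Lgals3 (0.8755) and Cstb (0.866), for Clec4a1 Snx2 (0.874), the macrophage marker Adgre1 (0.867) and Rnase4 (0.854), and for Clec10a Rarg (0.817), Nrros (0.813) and Nhsl2 (0.803).

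Whether receptors went together within a cluster was asked cell by cell, as the log2 odds ratio for detection of both in a cell thinned to 2000 UMIs, with clusters as strata. Clec4d and Clec4e were found together more often than independent detection would give in 4 of 4 libraries, at log2 odds ratios of 1.55, 1.11, 1.26 and 2.13 in BMT 1 to BMT 3 and BMT + T cells, a mean of 1.51 ± 0.449 (SD, n = 4). The exact sign-flip permutation test gave p = 0.13, the smallest that 4 libraries allow, and 0.15 adjusted over the 6 pairs. BMT 3 contributed 4 cells with both. Clec4e with Clec4n (1.02 ± 0.692), Clec7a with Clec4n (0.733 ± 0.439), Clec4a1 with Clec4a3 (0.641 ± 0.223) and Clec4a2 with Clec4a3 (0.367 ± 0.373) were also above 0 in 4 of 4 libraries (SD, n = 4), each with the same exact p. Clec4d with Clec4n was above 0 in 3 of 4 (0.302 ± 0.424, exact p = 0.375).

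The libraries differed most in Clec7a. BMT 2 was highest and the BMT + T cells library was below BMT 1 and BMT 2 in Mono (3.68 against 33.9 and 47.9 CP10K), ISG mono (9.77 against 19.75 and 31.1), Hmox1+ mono (7.79 against 26.6 and 39.5), Mrc1+ macrophages (10.4 against 23.5 and 72.0), MC (16.15 against 30.8 and 53.7), resident mLC (0.936 against 2.81 and 7.83) and cycling mLC (1.86 against 7.63 and 12.2). BMT 3 lay between the BMT + T cells library and BMT 1 in Mono (10.8 CP10K) and below the BMT + T cells library in resident mLC (0.599). In Mrc1+ macrophages it lay between BMT 1 and BMT 2 (33.3). Clec10a ran the other way in Mono, at 1.86 and 2.28 CP10K in BMT 3 and BMT + T cells against 0.290 and 0.631 in BMT 1 and BMT 2, and in Mrc1+ macrophages (0.734 and 0.473 against 0.0558 and 0.266). In the short names of the libraries, BMT 1 and BMT 2 share a form and BMT 3 shares another with BMT + T cells, so the label is crossed with these pairs only through BMT 3, the 1 BMT library in the pair of BMT + T cells.

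**Figure D4:**
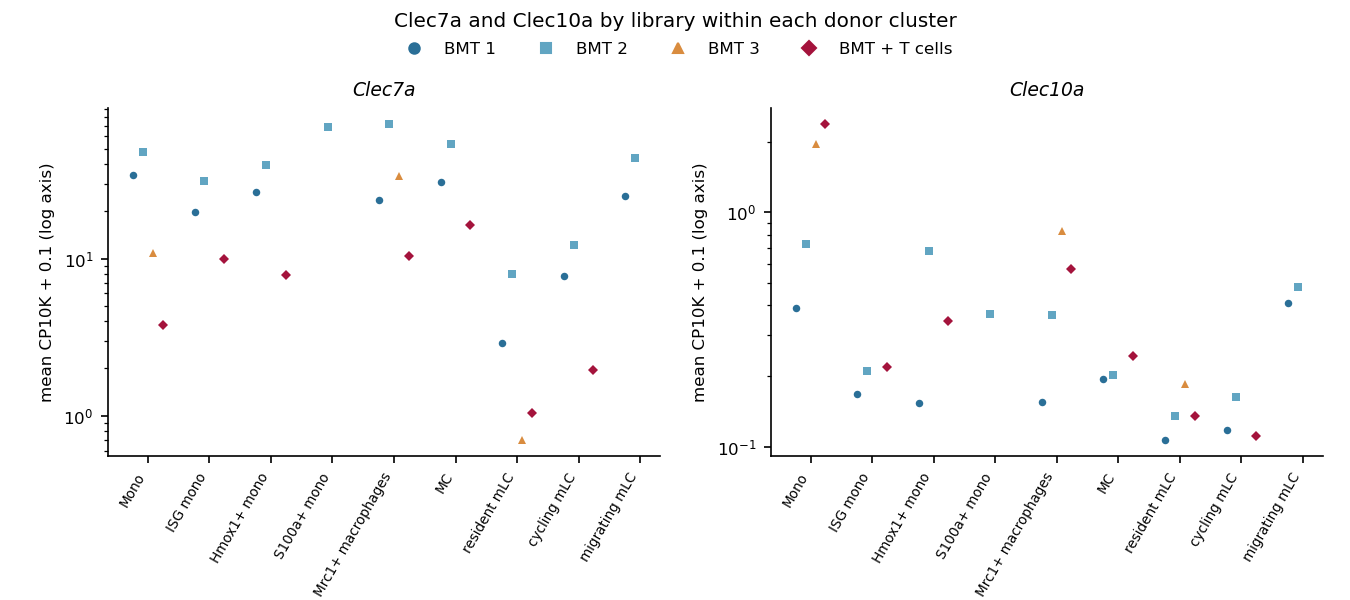
Mean CP10K + 0.1 (log axis) of Clec7a (left) and Clec10a (right) in each donor cluster, with 1 point per library of at least 20 cells. For Clec7a the BMT + T cells points lie below those of BMT 1 and BMT 2 in each cluster that has them, as in Mono (3.68 against 33.9 and 47.9 CP10K), and for Clec10a in Mono the order is turned round.

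As the mean over Mono, Mrc1+ macrophages and resident mLC, the clusters with at least 20 cells in all 4 libraries, Clec7a was at 20.1, 42.6 and 14.9 CP10K in BMT 1 to BMT 3 and at 4.99 in BMT + T cells. Its log2 fold change was -2.20 (SE 0.55), with a limma adjusted p of 0.959 over 7345 genes. None of the 9 receptors tested was called between the labels (absolute log2 fold change above 1 and adjusted p under 0.05), and limma called 0 of all genes (0.0%), with 2 of 9 receptors and 316 genes at an unadjusted p under 0.05. Clec10a was at 0.117, 0.311 and 0.892 against 0.929 CP10K (log2 fold change 1.21, limma adjusted p = 0.982) and Clec4e at 1.76, 1.20 and 1.16 against 0.635 (-0.98, limma adjusted p = 0.982). The other 6 had log2 fold changes from -0.06 (Clec12a) to 0.43 (Clec4a2). Without BMT 3 all 3 of Clec7a (-2.53, limma adjusted p = 5.37e-04), Clec10a (1.78, limma adjusted p = 0.00651) and Clec4e (-1.08, limma adjusted p = 0.0181) were called, with 219 of all genes. That fit sets 1 library against 2 with 1 residual degree of freedom, and in it label and library pair are the same split and cannot be told apart, so these calls do not speak for the label. Between BMT + T cells and BMT 3 alone, 1 library against 1, the log2 difference was -1.56 for Clec7a, 0.05 for Clec10a and -0.78 for Clec4e. The fit with the library pair as a term gives the same 3 values by construction, since its label term is this same difference. It left 1 residual degree of freedom, the difference between BMT 1 and BMT 2, and called none of the 3.

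Cd209a was rare in donor cells. It had 80, 477, 91 and 54 UMIs in BMT 1 to BMT 3 and BMT + T cells, of which the 10 cells with the most held 95, 32.5, 89.0 and 88.9%. It was at 0.0776 and 0.594 CP10K in migrating mLC of BMT 1 and BMT 2, at 0.0974 and 0.0469 in MC and at 0.0175 and 0.0239 in Mono of these libraries, so migrating mLC were highest in BMT 2 but not in BMT 1. Mono of BMT 3 and BMT + T cells held 0.166 and 0.252 CP10K. Of 42 donor cells with 5 or more UMIs, 25 lay in the migrating mLC cluster of BMT 2.

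In host CD11b+MHCII+ cells, 1 library without replicates, Clec7a had 224 UMIs, Clec4n 216 and Clec4a1 181. The library had a median of 4376 UMIs per cell, and 208 of its 781 cells had over 20% mitochondrial UMIs. Clusters 1 to 4 of this library held Cd207 at 1.56, 14.0, 2.83 and 6.84 CP10K, and Ccr7 at 2.87 in cluster 4 against at most 0.163 in the other 3. Over all cells of a cluster pooled, Clec4a1 was at 0.502, 0.862, 0.532 and 0.151 CP10K in clusters 1 to 4 (95% Poisson intervals from 0.0689 to 1.09), and donor resident mLC at 1.60, 1.95, 1.88 and 2.07 in their 4 libraries. Clec4n was at 0.361, 1.51, 0.329 and 0.351 CP10K, and resident mLC at 2.63, 2.91, 1.76 and 1.83. Its interval in cluster 2 was 1.25 to 1.805, which held the 1.76 of BMT 3.

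Clec7a was at 0.317, 1.19, 0.215 and 1.205 CP10K in host clusters 1 to 4, of which the second and the fourth lay inside the 0.776 to 8.34 of donor resident mLC. In cluster 4, with Ccr7, its interval was 0.943 to 1.52 CP10K, while the migrating mLC of donors held 28.95 and 40.6 CP10K in BMT 1 and BMT 2. Clec4e had 7 UMIs, Cd209a 20, Clec4a3 23, Clec4d 29, Clec12a 30 and Clec4a2 32 in all 781 host cells. Host and donor cells were normalised in separate tables to all UMIs of each cell, so these levels were set side by side without a test, and the intervals cover counting error only.

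**Figure D5:**
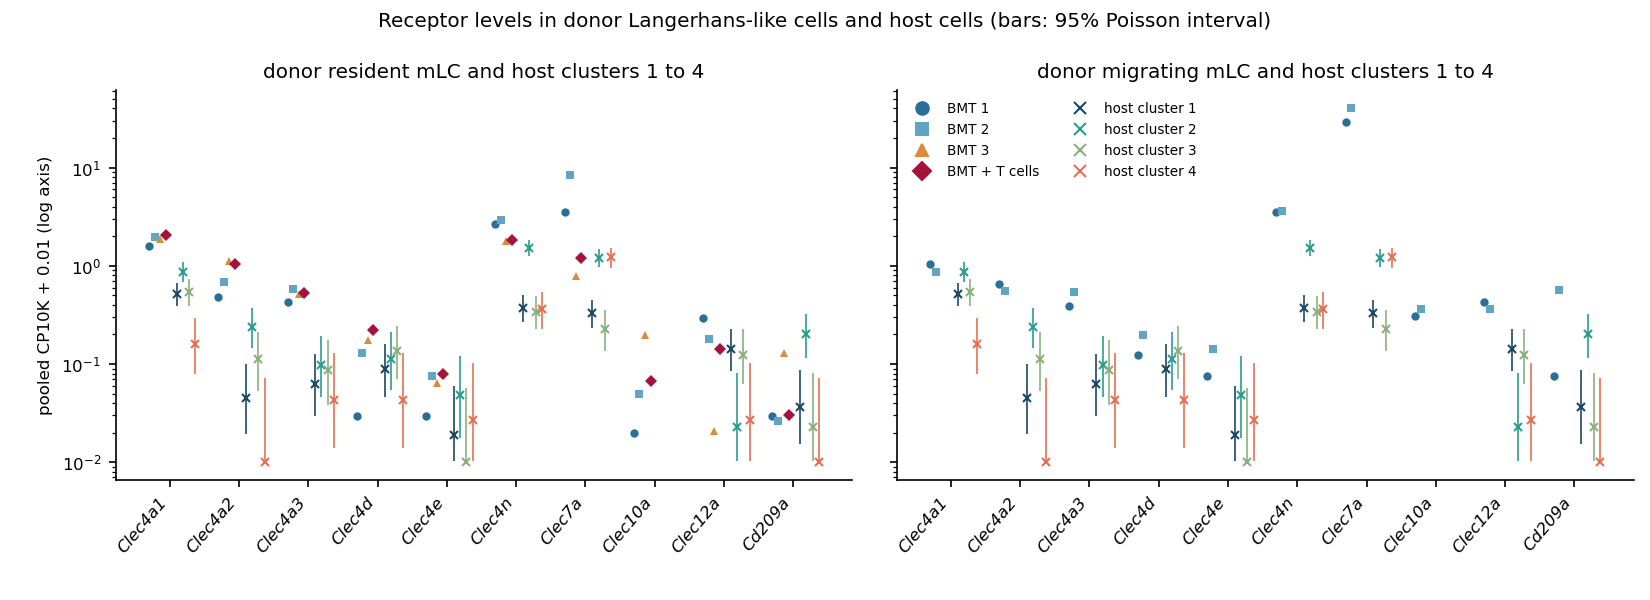
Pooled CP10K + 0.01 (log axis) of the 10 receptors in donor resident mLC (left) and migrating mLC (right), 1 point per library, beside host clusters 1 to 4 with 95% Poisson intervals. Clec4a1 and Clec4n of resident mLC lie above all host clusters, though the Clec4n interval of host cluster 2 (1.25 to 1.805) holds the value of BMT 3 (1.76). Clec7a of migrating mLC (28.95 and 40.6) lies far above host cluster 4 (1.205), with no host value for Clec10a.

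Of 13 signalling partners of these receptors tested between resident mLC and Mono, limma called 1, higher, against 1.5% of all genes, and the median log2 fold change was -0.34. The called gene was Card9, the adaptor downstream of Syk, at 1.02 to 3.32 CP10K in resident mLC and 0.198 to 0.487 in Mono (log2 fold change 2.47, SE 0.25, limma adjusted p = 3.42e-08). It was called higher against Mrc1+ macrophages too (2.25) and lower in migrating than in resident mLC (-2.53), where 0.908% of all genes were called lower. The partners Prkcd (-1.68), Fcer1g (-1.61), Malt1 (-1.22), Syk (-1.15), Lyn (-1.002) and Tyrobp (-0.64) were lower in resident mLC than in Mono at an adjusted p under 0.05 without reaching the fold. These 6 of 13 stand beside 14.3% of all genes lower by the same rule, and are named after their values were seen. The phosphatases Ptpn6 (0.16), Ptpn11 (-0.34) and Inpp5d (0.25) had adjusted p from 0.161 to 0.388. None was called between Mrc1+ macrophages or MC and Mono, or between resident mLC and MC.

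Of 28 other C-type lectin genes, 24 were listed in donor cells and 14 passed the filter, and 7 of the 14 were called between resident mLC and Mono, 3 higher and 4 lower, against 1.5% and 2.56% of all genes. Higher were Cd207, the receptor that defines Langerhans cells (log2 fold change 5.31), Klrd1 (3.36, at 1.36 to 3.15 CP10K in resident mLC and 0.0267 to 0.26 in Mono) and Ly75, the endocytic receptor DEC-205 (2.87, at 0.729 to 1.97 and 0.00968 to 0.211). The mannose receptor Mrc1 (-3.85) and Clec4b1 (-2.52) were among the lower ones. The median over the 14 was -1.37. Between migrating and resident mLC 4 of 14 were called, 3 higher and 1 lower, against 1.71% and 0.908% of all genes.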

How the data were processed

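Single-cell libraries were counted with kallisto and bustools and handled in Seurat (GRCm38 is named in the submitters' processing notes, and tool versions are not given in the sources used here). Per the study's methods, cells with few genes or many mitochondrial reads and doublets called by DoubletFinder had been removed, and no doublet caller was run again. Yet 148, 17, 6 and 10 cells of BMT 1 to BMT 3 and BMT + T cells were over the study's cut of 20% mitochondrial UMIs. In the host library 208 cells were over it and 133 were under the study's cut of 500 genes. All of these cells were kept here. The deposited values are the natural log of 1 plus the UMIs of a gene per 10000 UMIs of its cell, with the authors' cluster names and the percent of mitochondrial UMIs per cell, which the authors computed. UMIs were recovered from these values: 100.0% of 28329689 donor, 1755429 host and 15311900 keratinocyte values were whole within 0.001.

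For each donor library and cluster with at least 20 cells, mean CP10K was taken as log2(CP10K + 0.1) and fitted with limma 3.58.1 (R 4.3.3, trend and robust, statmod 1.5.0), with cluster and library as terms over 27 units and the genes whose mean CP10K reached 0.1, and Benjamini-Hochberg adjustment over all of them. This scale understates changes of low genes. A call needed an absolute log2 fold change above 2 and an adjusted p under 0.05. Labels were compared on the mean of 3 clusters per library, with a fold threshold of 1 (log2). Libraries are the unit of error. Per the study they hold pooled mice, which the labels do not tie to libraries. With library as a term, p-values between clusters measure how cluster differences vary between libraries, pooled over all clusters in the fit. Those between labels measure the spread between libraries. Either spread may be in part technical. A count model on summed UMIs was not run. Thinning to 2000 UMIs left out 182 of 2572, 770 of 8382, 38 of 226 and 87 of 719 donor cells. Intervals are exact Poisson intervals at 95% and cover counting error only. Of these steps, the limma comparisons between clusters were tested on simulated data, with changes larger than the fold threshold. The other steps were not tested in this way.

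The members, the lists of partners and other lectins and the tests were chosen with earlier results of these data known. All 10 members are named, of the lists up to 3 called genes per direction by fold, and for each tested member the 3 genes with the highest correlation. One gene that the rule names among the other lectins is not reported here. Alternatives covered the pseudocount, filter, scale of the mean, cell minimum, clusters in the fit, thinning, call rule and leaving out libraries.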

Additional observations from a re-analysis of the deposited data

Results flagged for a closer look

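In 2 cases the BMT libraries and the BMT + T cells library differed in direction under the same contrast, and neither difference was tested. Cd209a was higher in MC than in Mono in BMT 1 (log2 difference 0.75) and BMT 2 (0.25) and lower in BMT + T cells (-1.0026), at 0.0974, 0.0469 and 0.0757 CP10K in MC and 0.0175, 0.0239 and 0.252 in Mono. These values rest on few cells: in BMT 1, 59 UMIs in 5 MC (50 of them in 1 cell) and 10 UMIs in 1 Mono cell, in BMT 2, 52 UMIs in 23 MC and 6 in 2 Mono cells, and in BMT + T cells, 4 UMIs in 1 MC and 24 in 4 Mono cells. Clec4a1 was higher in resident mLC than in MC in BMT 1 (0.31) and BMT 2 (0.15) and marginally lower in BMT + T cells (-0.0676), at 1.645, 2.05 and 2.14 CP10K in resident mLC and 1.305, 1.84 and 2.25 in MC. BMT 3 had 18 cells of MC and gave no value for either.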

How the results depend on the processing

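Of 857 values recomputed for single genes and pairs, 762 kept their direction and their side of the threshold, 72 lost the call, 9 gained it and 14 turned in direction. With a pseudocount of 1, and likewise with means of the deposited log values, the members called were 1 for resident mLC against Mono, 1 against MC, 1 against Mrc1+ macrophages, 1 for migrating against resident mLC (Clec7a each time), and 0 for MC against Mono. All genes called fell from 295, 152, 255, 190 and 67 in these comparisons to 41, 14, 42, 26 and 9 with a pseudocount of 1 and to 21, 9, 18, 17 and 5 with log means, and for Mrc1+ macrophages against Mono from 30 to 5 and 3. A pseudocount of 0.01 gave 630, 326, 547, 421, 147 and 78. By adjusted p alone, 2 members were called for Mrc1+ macrophages against Mono and 5 for MC against Mono, beside 571 and 519 of all genes. For resident mLC against MC 6 were called, and for migrating against resident mLC 4, beside 1140 and 1464 of all genes. All genes called for resident mLC against Mono and against Mrc1+ macrophages were 2375 and 2292. In MC against Mono, 1 member was called (Clec4e) with at least 50 cells, with only the 2 clusters in the fit and in thinned cells. All genes called there were 57, 59 and 63. In migrating against resident mLC 1 member was called (Clec7a) with only the 2 clusters, beside 2 members and 190 of all genes with all clusters in the fit. The causes were not tested.

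Leaving out 1 library gave 6 to 7 members called for resident mLC against Mono, 2 to 3 against MC, 6 against Mrc1+ macrophages, 2 for MC against Mono, 2 for migrating against resident mLC, 0 for Mrc1+ macrophages against Mono and 0 to 3 between the labels, the 3 without BMT 3. All genes called were then 299 to 310 for resident mLC against Mono, 56 to 80 for MC against Mono and 28 to 39 for Mrc1+ macrophages against Mono. With no library left out, limma called 152 of 7267 genes for resident mLC against MC and 255 against Mrc1+ macrophages. For migrating against resident mLC it called 190. Without BMT + T cells, MC against Mono called Clec12a in place of Clec10a (-1.57). Leaving out BMT 1 or BMT 2 was not run for migrating mLC, since only these hold both clusters.

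Directions that turned were all of values that were not called. In migrating against resident mLC they were Clec4a2 with only the 2 clusters (0.0237), Clec4d with a pseudocount of 1 (-0.0814) and log means (-0.0629), and Clec4e with log means (-0.0521). Between the labels they were, with all cells pooled, Clec4a2 (-0.30), Clec4a3 (-0.77), Clec4e (0.83) and Clec4n (-0.12). With the library pair as a term they were Clec4a3 (-0.13) and Clec12a (0.35), a fit that called 188 of all genes and none of the members. Clec4d turned with a pseudocount of 1 (-0.0018) and without BMT 3 (-0.22), Clec4n without BMT 3 (-0.0861, against 0.3825 without BMT 1 as the other end of its range) and Clec12a without BMT 1 (0.19, against -0.2636 without BMT 3). No paired analysis was possible because the groups compared between labels share fewer than 2 replicate numbers (the library pair above is read from library names, not from replicate numbers), while comparisons between clusters had the library as a term throughout.

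Depth limits the low receptors: Clec10a and Clec4e rest on 1 to 59 UMIs per library in resident mLC, and BMT 3 has 226 cells.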

Other observations

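Cells rich in Cd209a were few and lay mostly in 1 cluster. In the 42 donor cells with 5 or more Cd209a UMIs, Clec10a was at 2.52 CP10K against 0.179 in all donor cells and its relative Mgl2 at 19.55 against 3.23, while Ccr7 was at 0.0532 against 0.636. A Clec10a UMI was found in 28 of these 42 cells and in 1166 of all 11899. By the authors' clusters, 28 of the 42 were in migrating mLC, 8 in Mono and 3 in MC, although migrating mLC as a cluster held Ccr7 at 8.69 to 9.13 CP10K in BMT 1 and BMT 2, far above the 42 cells. The cells were picked by a measured value, so no test was made.

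Groups of fewer than 20 cells entered no comparison. In BMT 3, 2 migrating mLC held Clec10a at 6.715 and Cd209a at 8.85 CP10K. Its 6 Hmox1+ mono cells held Clec4d at 7.535 and Clec4e at 2.96 CP10K, and its 18 MC held Clec7a at 33.85 CP10K.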
